A study of Mus musculus with 4 samples.

Results

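FOXL2 peaks were examined at 37 protein-coding genes of the germ line, in ovaries of CD1 mouse embryos. FOXL2 is a forkhead transcription factor made by the pregranulosa cells, the somatic cells that support the germ cells of the fetal ovary. The genes were taken by name and comprise 14 genes of germ cell identity and pluripotency, 15 genes of the piRNA pathway and 8 oocyte factors, out of 21887 protein-coding genes. There were 2 FOXL2 ChIP samples and 2 samples of input, chromatin that had not been through the antibody step. All 4 came from E14.5 embryos of the CD1 strain, and the labels name no engineered allele and no treatment. Each ChIP used a different pool of 80 to 100 ovaries freed of the mesonephros. The ChIP samples shared a single list of 11438 peaks on build mm10, each 300 bp wide, with no height, score or value per replicate. Read depth is therefore unknown, no value has a replicate error, and no test between gene groups was made. Counts are set beside those of all protein-coding genes. A pool of whole ovaries mixes germ and somatic cells, and the list does not say in which cells a site was bound. It holds no expression values, so the tissue label was not checked against marker genes.

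Germ cells of the fetal ovary stem from primordial germ cells, which switch on factors such as PRDM1, PRDM14 and TFAP2C and keep part of the pluripotency network before they commit to a germ line fate and enter meiosis. The piRNA pathway protects germ cells from transposons: PIWI proteins carry short RNAs, and Tudor domain proteins hold them together in cytoplasmic granules. Oocyte factors such as FIGLA, NOBOX, LHX8 and the SOHLH proteins act later, when oocytes form follicles and make the zona pellucida, the coat around the egg.

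The start regions of some of these genes show the sites at which a peak was or was not found. Each sequence below runs 5′ to 3′ from 250 bases before to 50 bases after a transcription start listed by RefSeq for GRCm38.p6, the assembly that mm10 denotes. Capitals mark every CG dinucleotide and every E-box of the form CACGTG. Ddx4, Dazl, Tdrkh, Gtsf1, Sohlh2 and the inner start of Tdrd7 are shown because a peak covered part of them. The outer start of Tdrd7, Mael and Nanos2 are shown because no peak did.
Ddx4 (chr13:112652261-112652560, - strand): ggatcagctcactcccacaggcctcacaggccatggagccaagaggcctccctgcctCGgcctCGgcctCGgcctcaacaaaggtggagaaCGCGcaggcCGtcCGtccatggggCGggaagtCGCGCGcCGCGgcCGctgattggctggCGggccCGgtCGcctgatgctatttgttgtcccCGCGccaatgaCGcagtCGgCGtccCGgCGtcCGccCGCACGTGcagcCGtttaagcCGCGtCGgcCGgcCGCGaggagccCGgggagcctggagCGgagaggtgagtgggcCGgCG
Dazl (chr17:50293571-50293870, - strand): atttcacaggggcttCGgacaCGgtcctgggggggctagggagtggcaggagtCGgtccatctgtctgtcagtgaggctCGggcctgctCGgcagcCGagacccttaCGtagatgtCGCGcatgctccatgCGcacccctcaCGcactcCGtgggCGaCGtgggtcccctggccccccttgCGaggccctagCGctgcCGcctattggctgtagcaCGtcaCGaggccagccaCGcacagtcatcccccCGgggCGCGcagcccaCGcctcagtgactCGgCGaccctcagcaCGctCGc
Tdrkh (chr3:94412994-94413293, + strand): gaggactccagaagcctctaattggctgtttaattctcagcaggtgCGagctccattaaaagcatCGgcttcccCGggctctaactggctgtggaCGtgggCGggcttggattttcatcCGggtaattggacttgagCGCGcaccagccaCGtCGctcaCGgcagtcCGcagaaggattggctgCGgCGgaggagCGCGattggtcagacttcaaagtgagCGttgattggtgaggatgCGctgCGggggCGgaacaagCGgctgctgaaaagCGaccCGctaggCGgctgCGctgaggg
Gtsf1 (chr15:103430378-103430677, - strand): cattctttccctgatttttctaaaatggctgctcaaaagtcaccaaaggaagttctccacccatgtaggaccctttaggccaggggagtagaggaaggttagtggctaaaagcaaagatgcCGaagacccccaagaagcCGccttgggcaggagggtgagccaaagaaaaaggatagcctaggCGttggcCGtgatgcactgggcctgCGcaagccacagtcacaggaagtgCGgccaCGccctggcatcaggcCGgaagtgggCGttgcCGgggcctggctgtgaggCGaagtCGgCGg
Sohlh2 (chr3:55181794-55182093, + strand): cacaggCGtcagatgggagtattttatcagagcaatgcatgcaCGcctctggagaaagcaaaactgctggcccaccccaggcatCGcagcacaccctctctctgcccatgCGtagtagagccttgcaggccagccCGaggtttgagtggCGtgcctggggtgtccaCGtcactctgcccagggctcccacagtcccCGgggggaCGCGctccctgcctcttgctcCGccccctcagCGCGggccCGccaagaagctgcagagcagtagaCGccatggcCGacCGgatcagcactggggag
Tdrd7 inner start (chr4:45972581-45972880, + strand): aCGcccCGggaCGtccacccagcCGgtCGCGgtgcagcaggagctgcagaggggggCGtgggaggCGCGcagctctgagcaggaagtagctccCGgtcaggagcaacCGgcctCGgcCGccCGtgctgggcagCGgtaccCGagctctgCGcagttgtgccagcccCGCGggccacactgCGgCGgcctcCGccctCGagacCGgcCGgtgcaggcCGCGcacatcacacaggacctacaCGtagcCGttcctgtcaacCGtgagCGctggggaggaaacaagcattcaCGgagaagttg
Tdrd7 outer start (chr4:45965085-45965384, + strand): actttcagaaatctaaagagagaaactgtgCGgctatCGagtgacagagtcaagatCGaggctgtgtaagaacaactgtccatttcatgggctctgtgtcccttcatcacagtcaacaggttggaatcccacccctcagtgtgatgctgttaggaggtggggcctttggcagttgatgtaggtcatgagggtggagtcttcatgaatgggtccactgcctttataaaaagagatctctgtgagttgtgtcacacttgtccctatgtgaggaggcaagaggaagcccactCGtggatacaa
Mael (chr1:166238695-166238994, - strand): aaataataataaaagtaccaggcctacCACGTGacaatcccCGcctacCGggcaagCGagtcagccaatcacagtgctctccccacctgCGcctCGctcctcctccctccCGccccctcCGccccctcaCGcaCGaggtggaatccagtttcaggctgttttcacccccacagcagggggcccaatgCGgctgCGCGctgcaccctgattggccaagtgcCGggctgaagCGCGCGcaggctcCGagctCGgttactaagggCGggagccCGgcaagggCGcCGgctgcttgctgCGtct
Nanos2 (chr7:18987274-18987573, + strand): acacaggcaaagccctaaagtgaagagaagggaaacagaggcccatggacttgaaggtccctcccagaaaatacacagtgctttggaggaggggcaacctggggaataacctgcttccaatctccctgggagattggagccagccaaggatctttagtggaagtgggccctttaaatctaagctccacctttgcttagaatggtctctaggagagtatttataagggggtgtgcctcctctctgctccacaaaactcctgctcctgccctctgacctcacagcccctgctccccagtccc
Peaks covered 195 of the 300 bases at Ddx4, 198 at Dazl, 106 at Tdrkh, 232 at Gtsf1, 52 at Sohlh2 and 269 at the inner start of Tdrd7.

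The germ line genes differed by role in how often a FOXL2 peak lay near them. Occupied here means that the centre of a peak fell in the gene or no more than 10 kb beyond either end, and 19 of the 37 genes (51.4%) were occupied, against 49.6% of all protein-coding genes. By role, 10 of 14 germ cell identity genes (71.4%), 7 of 15 piRNA pathway genes (46.7%) and 2 of 8 oocyte factors (25%) were occupied. The share over all 37 genes was thus near that of all genes, while the share was above it for germ cell identity genes and below it for oocyte factors. With a window of 50 kb, in which 67.5% of all genes were occupied, the counts were 13 of 14 germ cell identity genes (92.9%), 12 of 15 piRNA genes (80.0%) and 5 of 8 oocyte factors (62.5%). At 5 kb the counts were 8 of 14 (57.1%), 6 of 15 (40.0%) and 2 of 8 (25%), in the same order. The share of all genes was then 45.9%. Germ cell identity genes thus lay nearer to all genes at 5 kb than at 10 kb, and oocyte factors lay nearer at 50 kb. The groups are small and the difference between them was not tested.

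Many of these peaks were not at the gene's own ends. A border is either end of an annotated gene, and an own-border peak is one within 1 kb of a border of the gene with no other protein-coding border nearer. Own-border peaks were found at 9 of 37 genes (24.3%), against 31.3% of all protein-coding genes. They were found at 6 of 14 germ cell identity genes (42.9%), 2 of 15 piRNA genes (13.3%) and 1 of 8 oocyte factors (12.5%). With a border distance of 0.5 kb in place of 1 kb, 4 of 14 germ cell identity genes had one (28.6%), against 26.8% of all genes. Peaks away from borders, farther than 1 kb from any protein-coding gene end, were found at 10 of 37 genes (27.0%), against 13.7% of all protein-coding genes, and 7 of these 10 were germ cell identity genes. With a window of 5 kb in place of 10 kb only 2 of the 14 germ cell identity genes had such a peak, against 11.5% of all genes. Only a peak at a neighbouring gene was found at 3 of 37 genes (8.11%), against 8.91% of all protein-coding genes, and all 3 were piRNA genes. The 19 occupied genes had 26 peaks, of which 11 were own-border peaks, 4 lay at borders of neighbours and 11 lay away from borders. This split of peaks is not given for all protein-coding genes, for which only the shares of genes above are at hand.

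**Figure D1:**
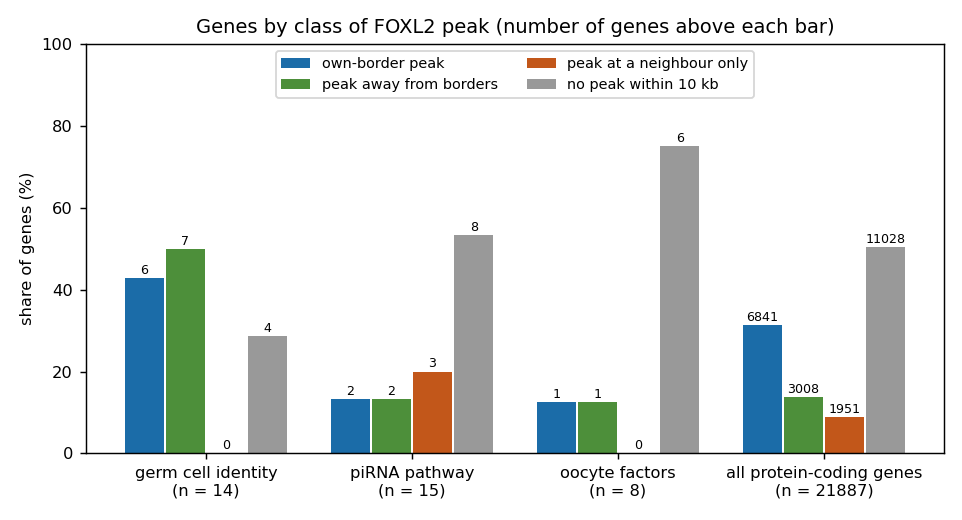
Share of genes (vertical axis, %) in each role group and among all protein-coding genes, by class of FOXL2 peak, with the number of genes above each bar. A gene can have both an own-border peak and a peak away from borders. Germ cell identity genes have 6 and 7 genes in these classes, and the 3 genes with a peak at a neighbour only are all piRNA genes.

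The genes also differed in length. Germ cell identity genes had a median length of 4.34 kb, piRNA genes of 43.8 kb and oocyte factors of 7.46 kb, against 17.2 kb for all protein-coding genes. A longer gene offers a longer window, and 62.2% of the genes above the median length of all protein-coding genes were occupied, against 37.0% of the others. Among the shorter genes, 9 of 12 germ cell identity genes, 0 of 2 piRNA genes and 0 of 5 oocyte factors were occupied. Among the longer genes, 1 of 2 germ cell identity genes, 7 of 13 piRNA genes (53.8%) and 2 of 3 oocyte factors were occupied. Most germ cell identity genes thus fell among the shorter genes and most piRNA genes among the longer ones.

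Of the RNA-binding proteins that define germ cells, Ddx4, which encodes the germ cell RNA helicase also called mouse vasa homologue, lies on chromosome 13 from 112598333 to 112652633. It had a peak at 112652156 to 112652455, whose centre lay 5 bp after the listed start and 328 bp inside the gene. A further peak lay 8343 bp outside Ddx4, at 112660827 to 112661126, and its nearest protein-coding border was that of Slc38a9, 4.79 kb away. Ddx4 therefore had a peak at its start and a more distant one nearer to its neighbour. Dazl, which encodes an RNA-binding protein that licenses germ cells for sexual development, lies on chromosome 17 from 50279393 to 50293620. Its single peak, at 50293469 to 50293768, had its centre 2 bp from the start. No other protein-coding border lay within 100 kb of that peak. Dnd1, an RNA-binding partner of NANOS proteins on chromosome 18, had a peak at 36765261 to 36765560, 804 bp within the gene, with the border of Hars at 1118 bp from the peak centre.

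The Nanos genes encode zinc finger RNA-binding proteins that repress translation, and the 3 paralogues differed. Nanos1, on chromosome 19 from 60755987 to 60759914, had peaks at 60755989 to 60756288 and at 60756671 to 60756970, with centres 151 and 833 bp inside the gene. Nanos3, needed for survival of primordial germ cells, had no peak at its ends. A pair of peaks lay outside it on chromosome 8 at 84183403 to 84183702 and 84183913 to 84184212, with centres 7000 and 7510 bp before its start. Nanos3 was the nearest protein-coding gene of both, but the microRNA gene Mir181c was nearer, at 4591 and 5101 bp. Nanos2, which acts in male germ cells, had no peak within 10 kb, and the nearest lay 23.5 kb away at the border of Foxa3. The pairs at Nanos1 and Nanos3 had their centres 682 and 510 bp apart, and a pair at Tdrkh 680 bp apart. Of the 26 peaks, 6 (23.1%) had another peak less than 1 kb away, against 10.4% of all peaks.

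Among the transcription factors of primordial germ cells, Prdm14, which represses somatic genes, had a peak on chromosome 1 at 13126583 to 13126882, 431 bp within the gene. A further peak 7321 bp outside Prdm14, at 13134335 to 13134634, lay nearer to Ncoa2, 4.62 kb from it. Tfap2c, which encodes an AP-2 factor, had a peak on chromosome 2 at 172550832 to 172551131, which is 5303 bp within the gene. Prdm1, the repressor that begins germ cell specification, had no peak within 10 kb, and the nearest lay 170.0 kb away. The factors that are known to work together in specification thus differed in whether a peak was listed.

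Among pluripotency genes, Sox2 had a peak on chromosome 3 at 34650703 to 34651002, 857 bp after its start, and a further peak at 34642515 to 34642814, 7331 bp before its start. The nearest other protein-coding gene, Dnajc19, was 569498 and 561310 bp from these peaks. The peak before the start was nearer to the microRNA gene Mir1897, at 4122 bp. Nanog had a peak at 122702732 to 122703031 on chromosome 6, 4608 bp before its start. The pseudogene Gm10224 was nearer to that peak, at 3813 bp. Utf1, a chromatin factor of pluripotent cells, had a peak at 139950431 to 139950730 on chromosome 7, 5468 bp beyond its end. That peak was also 582 bp from the border of the long noncoding RNA gene Gm16201. Pou5f1, which encodes OCT4, had its nearest peak 35.8 kb away, at the border of H2-Q10. Dppa3, also called Stella, had its nearest peak 40.1 kb away, in the interval between Dppa3 and Nanog and 37.2 kb from Nanog. Among Sox2, Nanog, Utf1, Pou5f1 and Dppa3, Sox2 alone had a peak at its own border.

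**Figure D2:**
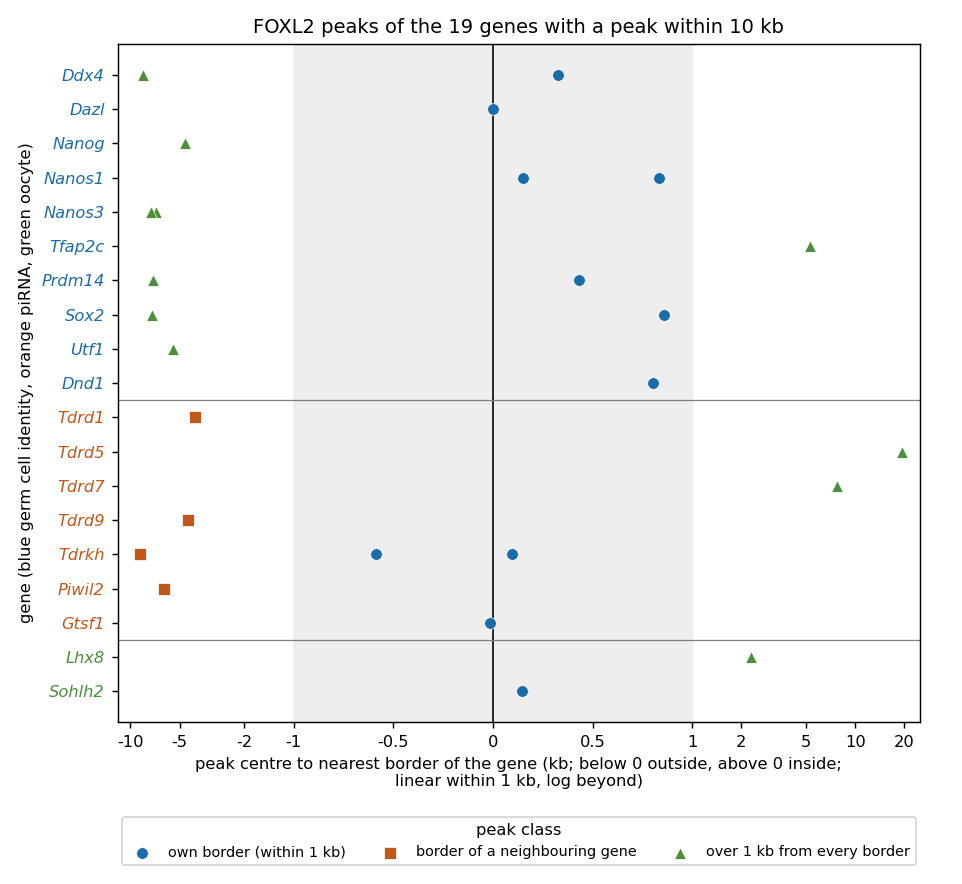
Position of each FOXL2 peak centre relative to the nearest border of the gene (horizontal axis, kb, below 0 outside and above 0 inside the gene, linear within 1 kb and logarithmic beyond) for the 19 occupied genes. The grey band marks the 1 kb on either side of the border. Own-border peaks lie 2 to 857 bp from the border, and the peaks of Tdrd1, Tdrd9 and Piwil2 are those of neighbouring genes.

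In the piRNA pathway, peaks at a gene's own start were found at Tdrkh and Gtsf1. Tdrkh encodes the mitochondrial Tudor protein that binds PIWI proteins during piRNA trimming, and lies on chromosome 3 from 94413243 to 94434854. Its peaks at 94412508 to 94412807 and 94413188 to 94413487 had centres 586 bp outside and 94 bp inside the gene. The outer peak was also 298 bp from the border of the long noncoding RNA gene 1700040D17Rik. A further peak in the Tdrkh window lay at the border of Mrpl9, a mitochondrial ribosomal protein gene, 8796 bp from Tdrkh. Tdrkh was the only gene of the 37 with 3 peaks in its window. Gtsf1, which encodes a zinc finger partner of PIWI proteins, had a peak on chromosome 15 at 103430310 to 103430609, 14 bp outside the gene at its start.

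Peaks deep inside piRNA genes were found at Tdrd7 and Tdrd5. Tdrd7 encodes a Tudor protein of the granules, and its peak on chromosome 4 at 45972550 to 45972849 lay 7672 bp from the gene's border. RefSeq lists 3 starts for Tdrd7, and the centre of the peak lay at -132 bp relative to the innermost of them. The peak was thus away from the gene's border but at a listed start. The peak of Tdrd5, on chromosome 1 at 156284888 to 156285187, lay 18311 bp after its listed start, and no other start of Tdrd5 was listed.

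Other piRNA genes counted as occupied only through neighbours. The peak of Tdrd1 was 24 bp from the border of Ccdc186 and 3996 bp from Tdrd1. That of Tdrd9, which encodes a helicase with a Tudor domain, was 16 bp from the border of Atp5mpl and 4463 bp from Tdrd9. That of Piwil2, which encodes the PIWI protein MILI, was 386 bp from the border of Polr3d, an RNA polymerase III subunit gene, and 6187 bp from Piwil2. Each of these peaks sat at the end of a gene outside the pathway. If each peak was given only to the gene that held it or had the nearest border, 4 of 15 piRNA genes had a peak, against 40.8% of all protein-coding genes. That count did not apply the limit of 10 kb, so a gene could also count through a more distant peak.

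The remaining 8 piRNA genes had no peak within 10 kb. They include both other PIWI genes, Piwil4, which encodes MIWI2, and Piwil1, which encodes MIWI. They also include Mael, Tdrd6, Tdrd12, Asz1, the helicase gene Mov10l1 and Pld6, whose mitochondrial product takes part in piRNA processing. The nearest peak lay 11.4 kb from Piwil4, at the border of Fut4, and this was the shortest such distance among the 18 genes of the list without a peak within 10 kb. The farthest peak counted outside a gene was that of Tdrkh at 8.8 kb. For Tdrd12, Mov10l1, Pld6 and Tdrd6 the nearest peak lay at 17.8, 20.5, 22.3 and 35.2 kb. For Mael it lay at 70.4 kb, for Asz1 at 179.0 kb and for Piwil1 at 264.0 kb. No PIWI gene thus had a peak at its own border.

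Of the oocyte factors, Sohlh2 and Lhx8 were occupied. Sohlh2, which encodes a helix-loop-helix factor needed for early oocyte differentiation, had a peak on chromosome 3 at 55182042 to 55182341, 147 bp after its start. Lhx8, which encodes a LIM homeobox factor of the same stage, had a peak at 154328123 to 154328422, also on chromosome 3, at 2288 bp after its start. Sohlh1, the partner of Sohlh2, had its nearest peak 136.0 kb away. The nearest peak of Figla lay at 55 kb and that of Nobox at 27.5 kb. The zona pellucida genes Zp1, Zp2 and Zp3, which encode glycoproteins of the egg coat, had their nearest peaks at 19, 231.0 and 17.0 kb. The partners Sohlh1 and Sohlh2 thus differed in having a peak, and none of the 3 zona genes had any within 10 kb.

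**Figure D3:**
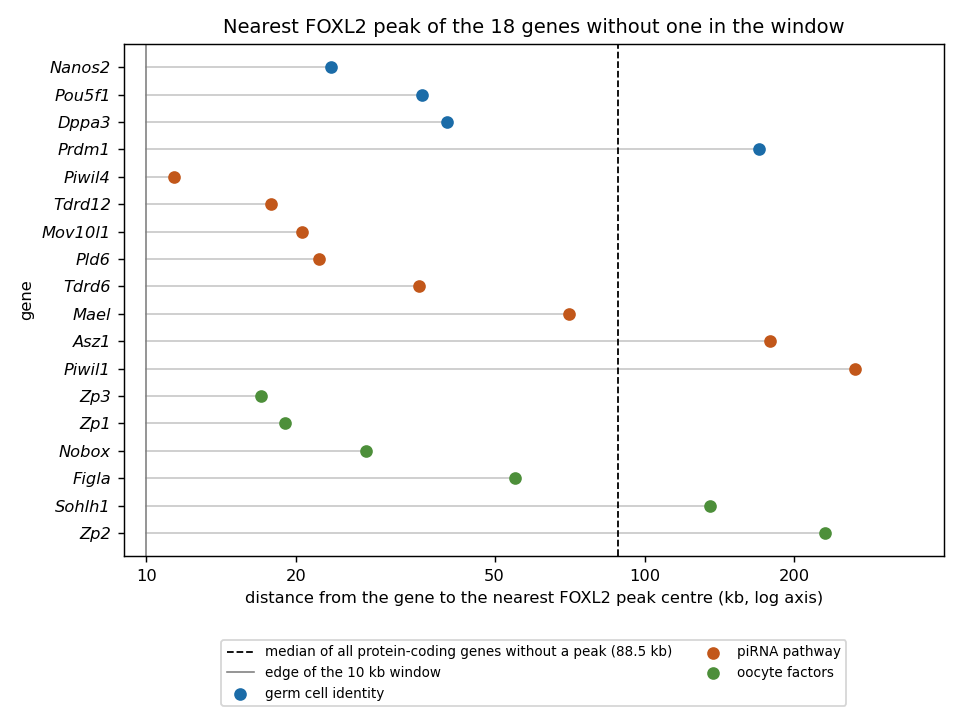
Distance from the gene to the nearest FOXL2 peak centre (horizontal axis, kb, logarithmic) for the 18 genes with no peak within 10 kb, coloured by role group. The distances run from 11.4 kb at Piwil4 to 264.0 kb at Piwil1, and the dashed line marks 88.5 kb, the median of all protein-coding genes without a peak in the window.

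The 18 unoccupied genes had their nearest peak at a median of 35.5 kb, against 88.5 kb for the 11028 unoccupied protein-coding genes. For 11 of the 18, the nearest peak lay within 1 kb of a protein-coding border of another gene (61.1%), against 66.1% of all unoccupied protein-coding genes. Of the 37 genes, 5 (13.5%) had no peak within 100 kb, against 23.7% of all protein-coding genes. These 5 were Prdm1, Asz1, Piwil1, Sohlh1 and Zp2. Of the 37 genes, 12 (32.4%) had a peak inside the gene, against 36.2% of all protein-coding genes, and 6 (16.2%) had 2 or more peaks in the window, against 14.8%.

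Own-border peaks lay at the start of the gene. The direction of transcription was known for 9 of the 11 own-border peaks, and all 9 were at the start, against 5756 of 5858 (98.3%) for all protein-coding genes. Of the 11 peaks, 9 were centred within the gene and 2 beyond it. For the peaks of Prdm14 and Dnd1 the direction was not used here.

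Peaks at starts were also compared with the base composition of the 300 bases shown above. RefSeq start regions were used for 29 of the 37 genes, taking the outermost listed start of each gene. No entry was used for Tfap2c, Prdm14, Dppa3, Dnd1, Tdrd6, Piwil2, Zp1 and Zp2. A peak centre lay within 1 kb of the start in 7 of the 29 genes (24.1%), against 37.2% of 17492 protein-coding genes. With any listed start the inner start of Tdrd7 makes this 8 of 29 (27.6%), against 38.4% of all protein-coding genes. The 7 starts with a peak held 13 to 38 CG dinucleotides with a median of 27, and the 22 without a peak held 0 to 48 with a median of 13.5. Over all protein-coding genes the medians were 24 with a peak and 5 without. The counts of the 29 genes overlapped between starts with and without a peak.

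A start region was called CG-dense when it had at least 50% G and C and at least 0.6 of the CG dinucleotides expected from its base composition. Of the 29 starts, 13 (44.8%) were CG-dense, against 45.8% of all protein-coding genes. A peak lay at 5 of these 13 (38.5%), against 66.2% of all CG-dense starts, and at 2 of the other 16 (12.5%), against 12.8%. The CG-dense starts were divided by role. In germ cell identity genes 4 of 6 had a peak (66.7%), at Ddx4, Dazl, Nanos1 and Sox2 but not Prdm1 or Utf1. In piRNA genes 1 of 7 had a peak (14.3%), at Tdrkh, and none was listed at the CG-dense starts of Mael, Tdrd1, Tdrd5, Pld6, Mov10l1 and Asz1. None of the 6 oocyte factor starts was CG-dense. Some starts lay near the cut of 0.6, with ratios of 0.57 at Figla and 0.54 at Sohlh2 below it and 0.62 at Utf1 above it. No other cut was tried. Tdrd5 had 48 CG dinucleotides, the most of the 29 genes, and no peak at its start. Within Tdrd7 the outer start had 4 CG dinucleotides and no peak, and the innermost had 32 and a peak. With any listed start, 14 of the 29 genes (48.3%) had a CG-dense start, against 48.3% of all protein-coding genes. Tdrd7 then joins Tdrkh among the piRNA genes with a CG-dense start and a peak.

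**Figure D4:**
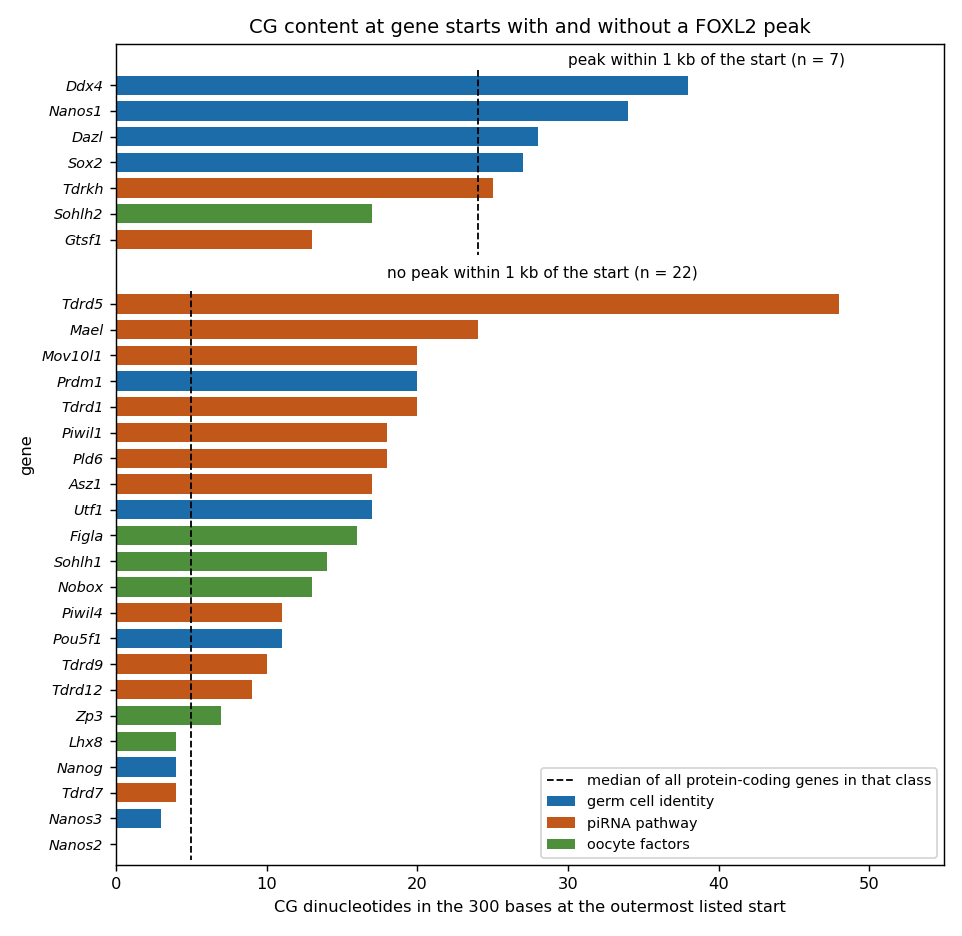
Number of CG dinucleotides in the 300 bases at the outermost listed start (horizontal axis) of the 29 genes with a start region, with the 7 starts that have a peak within 1 kb above the 22 that do not. Bars are coloured by role group, and dashed lines mark the medians of all protein-coding genes, 24 with a peak and 5 without.

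Short motifs were searched in the same 29 regions on both strands. The forkhead motif TGTTTAC was found in 2 (6.9%), Prdm1 and Zp3, against 2.93% of all start regions, and TATTTAC in 1, Tdrd9 (3.45% against 2.61%). None of these regions had a peak at the start. These letters were thus in none of the 7 start regions with a peak. Over all protein-coding genes, TGTTTAC was in only 2.69% of start regions with a peak and TATTTAC in 1.27%. With shares this low, their absence from 7 regions does not set these genes apart. The peaks themselves also reach beyond the regions searched. The nuclear receptor motif CAAGGTC was found in 1, Pou5f1 (3.45% against 3.64%), and the ETS motif CCGGAAG in 3, Asz1, Gtsf1 and Sohlh1 (10.3% against 11.9%). The E-box CACGTG, which reads the same on both strands, was found in 9 of 29 (31.0%), against 7.91% of all start regions. It was found in 6 of 13 piRNA starts (46.2%), namely Mael, Tdrd1, Tdrd9, Piwil1, Pld6 and Mov10l1, in 2 oocyte factor starts, Sohlh1 and Zp3, and in Ddx4. A peak lay at 1 of these 9 starts (11.1%), that of Ddx4, against 53.1% of the 1384 start regions with this motif. Most of the 9 are piRNA starts, and only 2 of the 13 piRNA starts had a peak, with or without the motif. Counted the other way, the motif was in 14.3% of the 7 starts with a peak, against 11.3% over all protein-coding genes. Each CACGTG contains a CG dinucleotide that is part of the CG counts above.

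Other genes of the same roles, listed from textbook knowledge but with earlier results of these data known, were counted in the same way. These lists are therefore not an independent check of the role groups above. Of 25 other germ cell and pluripotency genes, 12 (48.0%) were occupied and 10 (40.0%) had an own-border peak, against 49.6% and 31.3% of all protein-coding genes. The own-border peaks nearest to the border were 48 bp outside Klf2, 72 bp outside Cdh1, which encodes E-cadherin, 137 bp inside Nr6a1, an orphan nuclear receptor gene, and 198 bp inside Prmt5, an arginine methyltransferase gene. Of 24 other genes of the piRNA pathway and its Tudor family, 20 (83.3%) were occupied and 11 (45.8%) had an own-border peak. Those nearest to the border lay inside Btbd18 (87 bp), Rnf17 (87 bp), the chaperone gene Hsp90aa1 (132 bp) and Tdrd3 (210 bp). A number of these genes, such as Hsp90aa1 and Tdrd3, are active in many tissues. With each peak given to a single gene and no limit of 10 kb, 13 of the 24 had a peak (54.2%), against 40.8% of all protein-coding genes. Of 25 other oocyte genes, 7 (28.0%) were occupied and 2 (8.0%) had an own-border peak, at Taf4b (22 bp inside) and Uchl1 (460 bp inside). With a window of 50 kb, 18 of these 25 were occupied (72%), against 67.5% of all genes. Within 10 kb both lists of oocyte genes had a lower occupied share than all genes, but at 50 kb the list of other oocyte genes had a higher one. For germ cell genes and for piRNA genes, the share of all genes occupied within 10 kb lay between those of the 2 lists. Some other counts, but not all, put both germ cell lists above all genes. With a window of 5 kb, 57.1% of the 14 and 48.0% of the 25 were occupied, against 45.9% of all genes. With each peak given to a single gene and no limit of 10 kb, the shares were 78.6% and 56.0%, against 40.8%. Without that limit a gene can count through a distant peak. The peak 170.0 kb from Prdm1, for example, had the border of Prdm1 as its nearest protein-coding border. Own-border peaks were found at 42.9% of the 14 and 40.0% of the 25, against 31.3%.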

How the data were processed

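FOXL2 binding was mapped by ChIP-seq in E14.5 CD1 ovaries, and groups came from the sample titles. Per the submitters' processing notes, Bowtie 1.2, Picard 1.110, bedtools 2.24.0 and HOMER 4.9 and build mm10 were used. How each was used, the peak threshold and the handling of replicates and inputs were not given in the sources used here. Values that the authors deposited are positions in bp, for 11438 peaks with no other measure. Of these, 11435 on chromosomes 1 to 19, X and Y were used.

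Starts were converted to 1-based coordinates, and peak centres were compared with the RefSeq gene table of GRCm38.p6 in Python 3.11.15 with pandas 2.3.3. All 37 genes matched a symbol. Exons were not used. Strand and start sequence came from RefSeq start regions. Motifs were exact matches. Peak classes were checked on simulated peaks. Every one of the 37 genes is named, and of each list of other genes up to 4 with the own-border peak nearest to the border. Of the other genes, H1foo was matched by its synonym to H1f8, and Gcna and Tdrd15 were not matched. The genes and lists were chosen with earlier results of these data known. Alternatives were windows of 5 and 50 kb, border distances of 0.5 and 2 kb, peak edges and borders of genes of all kinds. Peaks within 500 bp were also merged, and each peak was also given to a single gene with no limit of 10 kb. Counting any listed start was added after the data were seen.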

Additional observations from a re-analysis of the deposited data

How the results depend on the processing

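Of 138 recounts, 123 stayed within 1.5 times the reported count and 15 did not. Some of the 123 could not change by construction. Own-border counts do not depend on the window. Counts of occupied genes and of peaks do not depend on the border distance or on borders of genes of other kinds. The 123 are therefore not a measure of how stable the counts are. A window of 50 kb gave 30 occupied genes of 37, against 67.5% of all protein-coding genes, with 62 peaks, 8 genes with a peak at a neighbour only (21.6% against 17.8%) and 18 with a peak away from borders (48.6% against 28.9%). It gave 12 occupied piRNA genes (80.0%), 5 oocyte factors (62.5%) and 18 other oocyte genes (72%), so that piRNA genes and other oocyte genes then lay above the share of all genes and not below it. It gave peaks away from borders at 11 germ cell identity genes (78.6%), 4 piRNA genes (26.7%) and 3 oocyte factors (37.5%), against 28.9% of all genes. A window of 5 kb gave 5 genes with a peak away from borders, 2 of them germ cell identity genes, against 11.5% of all genes. With each peak given to a single gene and no limit of 10 kb, 4 piRNA genes and 13 other piRNA genes had a peak, against 40.8% of all genes. In that count 0 of the 37 genes had a peak at a neighbour only, against 1.01% of all genes. That fall follows largely from the rule, which gives a peak at a neighbour's border to the neighbour. Wider windows add peaks by construction.

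The peak list holds no values per replicate, so leaving out a replicate was not run. No paired analysis was possible because the ChIP samples share a single peak list and the result comes from no test. Depth is unknown, and the list does not tell unbound sites from sites bound too weakly to pass the peak threshold.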
